A study of Mus musculus with 8 samples.

Results

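The core circadian clock genes examined here are Per1, Per2, Per3, Cry1, Cry2, Arntl (which encodes BMAL1), Clock, Nr1d1, Dbp and Tef. They were chosen by name, and all 10 were found among the 24469 genes of both deposited tables. The RNA came from hand-picked pancreatic islets, where the endocrine cells of the pancreas lie, of mice 8 weeks old. There were 4 libraries of knockout mice, which on the C57BL/6 background lack 4 intronic snoRNAs of Rpl13a (U32a, U33 and U34, with U35a), and 4 libraries of wild-type C57BL/6 mice. The labels' protocols give 4 mice per genotype, 1 for each library. The hour of islet collection is not given in the sources used.

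The mammalian clock is a transcriptional loop. CLOCK and BMAL1 bind E-box elements as a pair and switch on the Per and Cry genes, whose proteins return to the nucleus and repress that pair. The same pair switches on Nr1d1, Dbp and Tef, and the Nr1d1 product REV-ERB alpha in turn represses Arntl through ROR elements. In mouse tissues Arntl transcripts therefore peak when Dbp and Per3 transcripts are near their trough, with Nr1d1 peaking ahead of Dbp and the Per genes. In beta cells this clock is known to time insulin secretion.

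The knockout libraries held 2.12e+07 to 3.23e+07 assigned counts and the wild-type libraries 2.48e+07 to 4.11e+07. The 4 targeted snoRNAs together had 0 counts in each knockout library, a count that allows up to 3 counts a library, and 7, 1, 5 and 2 counts in wild-type replicates 1 to 4. The wild-type counts were 9 of Snord32a and 6 of Snord33; Snord34 and Snord35a had 0 counts in all 8 libraries, so the counts bear on the label for 2 of the 4. Exocrine RNA varied: the 20 acinar markers, all detected in all 8 libraries, took 2.71 to 13.1% of counts in knockout and 1.17 to 14.3% in wild type. The 10 beta-cell markers took 8.65 to 16.3% in knockout and 10.03 to 23.97% in wild type. Liver markers (3 of 3 detected in each library) took 0.466% in knockout replicate 2 and at most 0.000671% in any other library. In bulk RNA, fewer cells of a type and less RNA per cell cannot be told apart. All levels below are CPM, counts per 1e+06 counts of a library, scaled with TMM (a composition factor that ran from 0.701 to 1.34 here).

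Per length of annotated exons, Nr1d1 was the most abundant of the 10, with a mean over the 8 libraries of 15.1 CPM per kb. Clock followed with 5.45, and the lowest Nr1d1 value of 6.26 lay just above the highest Clock value of 6.22 CPM per kb. Per2 (4.15), Per1 (4.04), Cry2 (3.88), Tef (3.56) and Dbp (2.32 CPM per kb) came next, and their ranges over libraries overlapped from neighbour to neighbour, as did those of Clock and Per2. Per3 averaged 1.57 CPM per kb, within the range of Dbp. Cry1 (0.508) and Arntl (0.252 CPM per kb) were lowest, overlapped each other, and lay below every value of Per3. The exon lengths come from GENCODE M21, so these levels are approximate for the authors' annotation.

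The activators were measured first. Arntl, the BMAL1 gene, had 1.06, 2.25, 0.53 and 1.80 CPM in knockout replicates 1 to 4, against 1.17, 0.783, 4.46 and 3.11 CPM in wild-type replicates 1 to 4. Within each genotype, libraries high and low in Arntl stood side by side, and the genotypes overlapped. Its counts were low, from 12 in knockout replicate 3 (95% exact Poisson interval 6.20 to 20.96) to 129 in wild-type replicate 3 (108 to 153), so the extremes differed by more than counting error. Clock, the partner of BMAL1, had 66.0, 77.5, 67.9 and 74.9 CPM in knockout, against 78.2, 63.2, 85.1 and 85.3 CPM in wild type. Its spread was narrow, yet its highest values were in wild-type replicates 3 and 4, as those of Arntl were.

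The PAR bZIP genes, whose products bind D-box elements and are classic outputs of the clock, moved the other way. Dbp had 5.41, 5.05, 10.2 and 3.57 CPM in knockout, against 7.21, 19.0, 2.07 and 3.14 CPM in wild type. It was highest in wild-type replicate 2 and knockout replicate 3, the libraries lowest in Arntl, and lowest in wild-type replicates 3 and 4, the libraries highest in Arntl. Tef had 26.2, 24.4, 36.6 and 24.3 CPM in knockout, against 28.5, 41.9, 18.1 and 23.9 CPM in wild type, with the same libraries at both ends. Exons of Dbp share 539 bases with Sphk2 on the opposite strand, and the sources do not state whether counting used strand, so reads of the pair cannot be told apart. Sphk2 itself had 18.1 to 20.6 CPM in knockout and 21.6 to 25.7 CPM in wild type, a far narrower range than that of Dbp.

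The period genes encode the repressor proteins that pair with the cryptochromes. Per3 had 14.8, 12.1, 19.4 and 14.5 CPM in knockout, against 12.4, 26.9, 8.64 and 11.99 CPM in wild type, again with wild-type replicate 2 and knockout replicate 3 on top and wild-type replicate 3 at the bottom. Per2 had 22.6, 22.2, 31.9 and 26.9 CPM in knockout, against 22.3, 28.3, 21.3 and 19.1 CPM in wild type. Knockout replicate 3 and wild-type replicate 2 were again the highest, over a smaller span. Per1, which glucocorticoids and cyclic AMP also induce, had 40.2, 23.9, 25.1 and 23.5 CPM in knockout, against 14.4, 23.9, 17.1 and 13.9 CPM in wild type. The order of its libraries followed genotype more closely than that of the other period genes: 3 of 4 wild-type libraries lay below all 4 knockout libraries.

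Nr1d1 had 43.1, 44.3, 40.6 and 19.3 CPM in knockout, against 51.9, 84.4, 37.0 and 50.7 CPM in wild type. Wild-type replicate 2 was again highest, but knockout replicate 3, high in Dbp, was below the median, and the lowest library was knockout replicate 4. Exons of Nr1d1 share 263 bases with the opposite-strand gene Thra, from whose reads they likewise cannot be told apart; Thra had 8.35 to 10.6 CPM in knockout and 9.97 to 16.9 CPM in wild type. The cryptochrome genes encode the main repressors of CLOCK and BMAL1. Cry1 had 1.65, 1.63, 1.63 and 2.25 CPM in knockout, against 1.70, 0.873, 1.90 and 1.93 CPM in wild type, so wild-type replicate 2, highest in Nr1d1, Dbp, Tef and Per3, was lowest in Cry1. Cry2 had 36.5, 23.9, 30.3 and 17.8 CPM in knockout, against 14.6, 30.05, 16.3 and 26.7 CPM in wild type, with neither genotype apart.

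**Figure D1:**
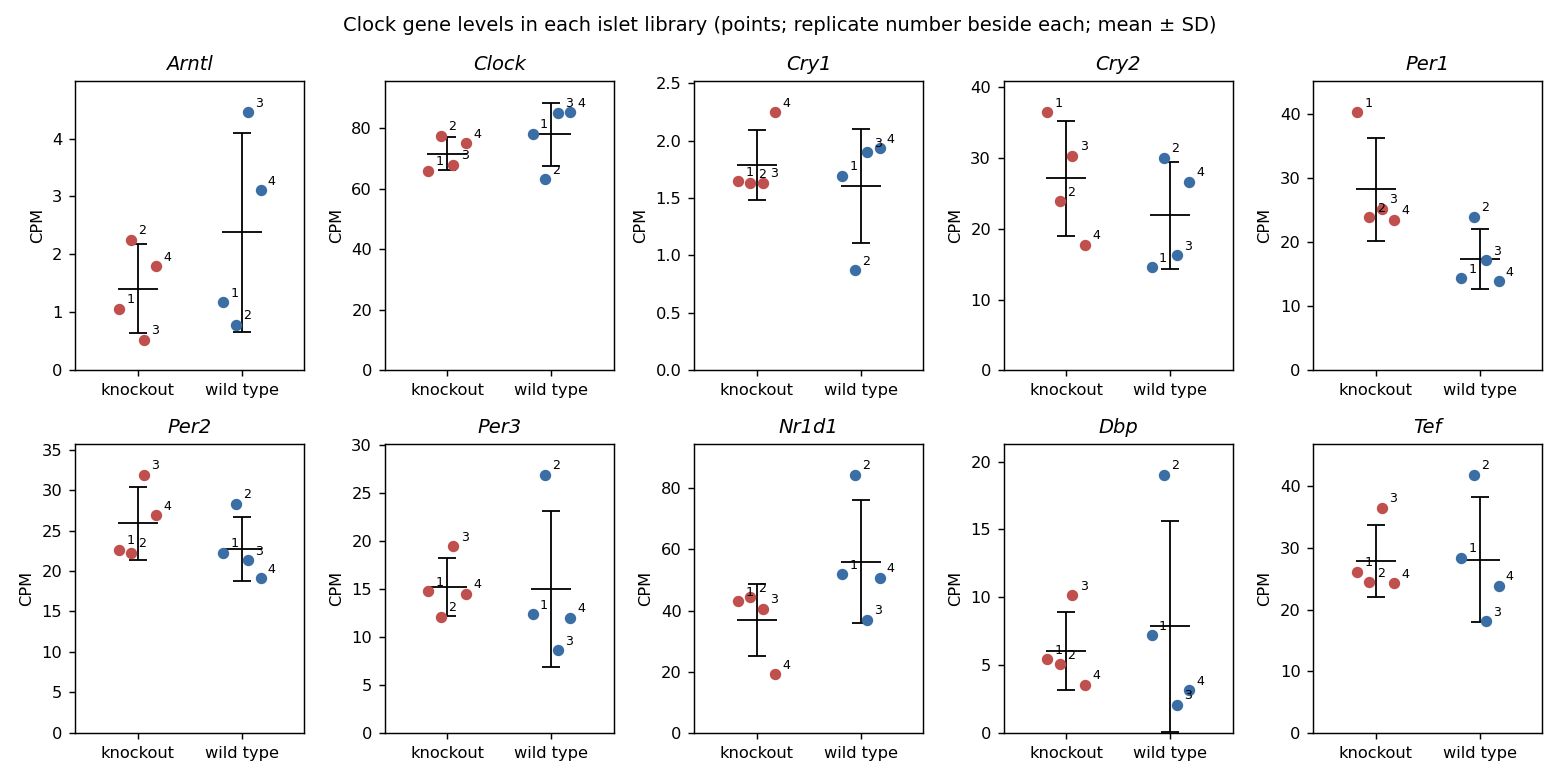
Levels of the 10 clock genes in CPM (vertical axis, linear from 0) for the 4 knockout libraries (red, left) and the 4 wild-type libraries (blue, right); numbers are replicates, and bars are mean ± SD. The genotypes overlap in every panel; wild-type replicate 2 is on top for Dbp (19.0 CPM), Tef (41.9 CPM), Per3 (26.9 CPM) and Nr1d1 (84.4 CPM).

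No clock gene passed FDR 0.05 between knockout and wild type in edgeR's quasi-likelihood test (0 of 10, against 0.0147% of the 13617 genes tested). DESeq2 called 1 of the 10, beside 526 of all 13617 genes, and gave Arntl and Cry1 no adjusted p. With limma-voom 0 of the 10 passed, beside 2 of all genes. At an unadjusted p under 0.05 there was 1, against 18.7% of all genes tested. The genotypes did not overlap for 0 of the 10, against 8.34% of all genes tested. The log2 fold changes, knockout over wild type, were positive for 5 and negative for 5, with a median of 0.0025 beside 0.0098 over all genes tested.

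Per1 had the smallest p: it averaged 28.2 ± 8.07 CPM in knockout and 17.3 ± 4.63 CPM in wild type (SD, n = 4 each), with 0.70 ± 0.23 as log2 fold change and SE (adjusted p = 0.184 in edgeR). DESeq2 gave 0.70 with an adjusted p of 0.039, the only one of 17 other settings in which it passed. Knockout replicate 1 held the highest value, and without it the estimate was 0.47. Among 12 glucocorticoid-induced genes, Per1 included, 6 were higher and 1 lower in knockout at an unadjusted p under 0.05, beside 8.42% higher and 10.3% lower of all genes tested, and 0 passed FDR 0.05 in edgeR's test. Examples are Fkbp5, a cochaperone of the glucocorticoid receptor, at 35.2 ± 8.89 CPM in knockout and 17.0 ± 3.93 CPM in wild type, and Klf9, a transcription factor, at 82.2 ± 17.3 and 49.6 ± 6.33 CPM in knockout and wild type (both edgeR adjusted p = 0.116).

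Nr1d1 averaged 36.8 ± 11.8 CPM in knockout and 56.0 ± 20.1 CPM in wild type, a log2 fold change of -0.61 ± 0.33 (edgeR adjusted p = 0.353). It depended on the extreme libraries, with -0.39 without knockout replicate 4 and -0.34 without wild-type replicate 2. Arntl averaged 1.41 ± 0.76 CPM in knockout and 2.38 ± 1.72 CPM in wild type, a log2 fold change of -0.72 ± 0.62 (edgeR adjusted p = 0.546). Dbp averaged 6.05 ± 2.86 CPM in knockout and 7.86 ± 7.77 CPM in wild type, a log2 fold change of -0.39 ± 0.75 (edgeR adjusted p = 0.809) that was 0.54 without wild-type replicate 2. Dbp lies 48 genes of the deposited table from Rpl13a on chromosome 7, in the order of the RefSeq GRCm38.p6 table, and Arntl 783 genes away on the same chromosome. Linkage to the targeted allele was not tested for Dbp.

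The other 6 estimates were small: 0.30 ± 0.30 for Cry2, 0.19 ± 0.15 for Per2, 0.17 ± 0.27 for Cry1, 0.018 ± 0.35 for Per3, -0.013 ± 0.25 for Tef and -0.12 ± 0.11 for Clock, with edgeR adjusted p from 0.497 to 0.983. With these errors a genotype difference of 2-fold would be within 2 standard errors for Arntl and Dbp and outside them for the other 8. On simulated libraries of this size the test recovered 74.6% of 2-fold and 17.9% of 1.5-fold changes at average dispersion. Within genotype, Dbp and Arntl spread more than 97.7% and 97.3% of the genes tested. In the real libraries Usp2, at 2.85-fold, did not pass (edgeR adjusted p = 0.099). The simulated shares therefore do not carry over to the clock genes.

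**Figure D2:**
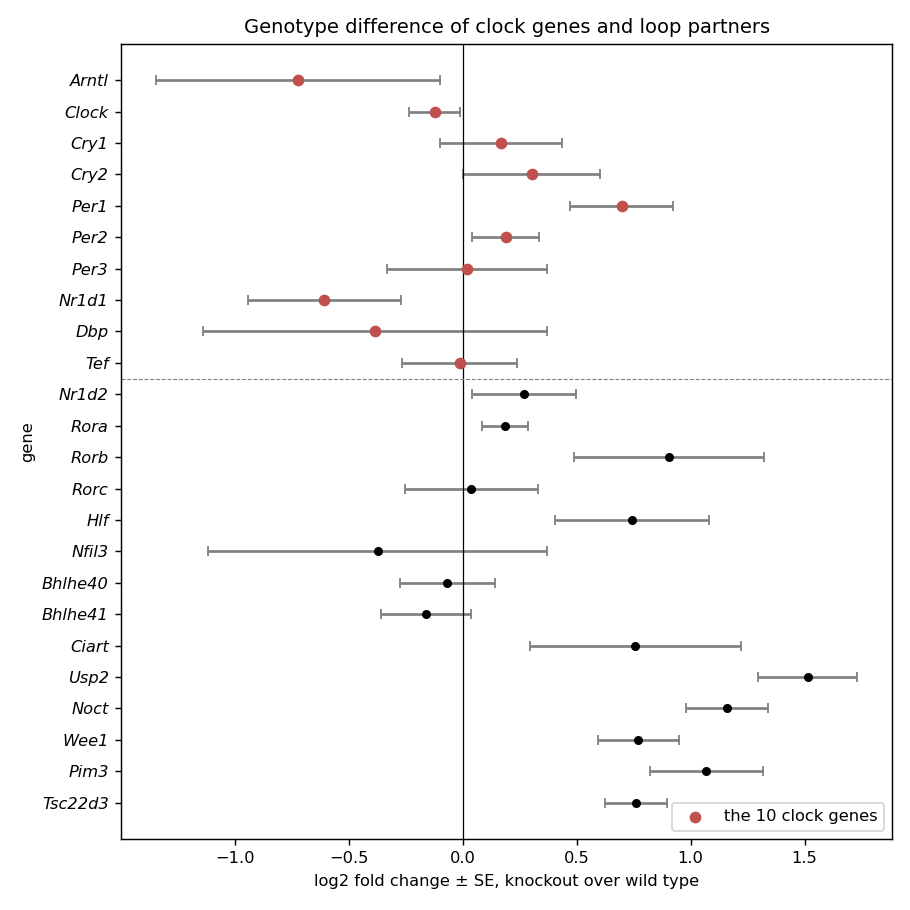
Log2 fold change of knockout over wild type (horizontal axis, points with SE bars, n = 4 libraries each) for the 10 clock genes (red, above the dashed line) and 14 loop partners and outputs (black). Arntl (-0.72 ± 0.62) and Dbp (-0.39 ± 0.75) have the widest errors among the 10 clock genes, while Usp2 (1.51 ± 0.22) lies farthest to the right of all genes shown.

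The spread that set these errors was between libraries of one genotype. With 1 library for each mouse, differences between mice and between library preparations cannot be told apart. The within-genotype SD of log2 CPM was 1.08 for Dbp and 1.01 for Arntl, larger than in 97.7% and 97.3% of the genes tested, whose median SD was 0.23. It was 0.53 for both Nr1d1 and Per3, 0.48 for Cry2, 0.41 for Tef, 0.40 for Cry1 and 0.36 for Per1. Per2 (0.24) and Clock (0.16) varied about as little as the median gene. Dbp spanned 2.85-fold among knockout libraries and 9.18-fold among wild-type libraries, and Arntl 4.24-fold and 5.69-fold. The shares above are over tested genes of all levels, and counting error is part of the SD at counts as low as the 12 of Arntl.

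With TMM scaling, these differences between libraries were shared, in part, by the opposing arms. Over the 8 libraries, Arntl was negatively related to Tef (Pearson r = -0.90, exact two-sided permutation p = 0.0022; Spearman rho = -0.93, exact permutation p = 0.0022). The same held for Dbp (r = -0.88, exact permutation p = 0.0046; rho = -0.93, p = 0.0022), for Per3 (r = -0.84, p = 0.0073; rho = -0.95, p = 0.0011) and for Per2 (r = -0.78, p = 0.024; rho = -0.90, p = 0.0046). After Benjamini-Hochberg adjustment over the 6 relations tested, the permutation p of r was 0.013, 0.014, 0.015 and 0.035 for Tef, Dbp, Per3 and Per2, and that of rho 0.0045, 0.0045, 0.0045 and 0.0068. Per1 (r = -0.49, adjusted permutation p = 0.257; rho = -0.71, adjusted p = 0.069) and Nr1d1 (r = -0.29, adjusted permutation p = 0.504; rho = -0.24, adjusted p = 0.582) did not pass.

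With the genotype means subtracted and rearrangement only within genotype, r was -0.93 for Tef, -0.92 for Dbp and -0.85 for Per3 (adjusted exact permutation p = 0.010, 0.014 and 0.010), and -0.75 for Per2 (0.076). Knockout replicate 3 and wild-type replicate 3 were the libraries farthest from the median of Arntl. Without both, r was -0.79, -0.83, -0.73 and -0.66 for Tef, Dbp, Per3 and Per2 over 6 libraries (adjusted exact permutation p = 0.104, 0.104, 0.117 and 0.227), so the direction stayed while no relation passed. Without knockout replicate 2, r was -0.90 for Tef, -0.89 for Dbp and -0.83 for Per3 (adjusted exact permutation p = 0.024, 0.024 and 0.037), and -0.77 for Per2, which did not pass (0.070). Per2 also did not pass without knockout replicate 3 (0.171), wild-type replicate 2 (0.076) or wild-type replicate 4 (0.089), so its relation was the least stable of the 4. Leaving out wild-type replicate 3 alone gave adjusted exact permutation p of 0.061 for Tef, 0.061 for Dbp, 0.071 for Per3 and 0.061 for Per2.

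The relations depended on the composition factor. Upper-quartile scaling gave r of -0.90 for Tef, -0.88 for Dbp, -0.83 for Per3 and -0.79 for Per2, whereas scaling by library totals alone gave -0.080, -0.48, -0.13 and 0.19 for the same genes, none past the adjusted threshold. On the authors' own RPM values, also scaled to a total of reads, Dbp ranged from 2.25 to 4.33 RPM in knockout and from 1.20 to 13.4 RPM in wild type, with wild-type replicate 2 highest and wild-type replicate 3 lowest as in CPM. The library with the highest level was the same in CPM and in RPM for 8 of the 10 genes, and that with the lowest for 7. The full order of libraries differed more: Spearman rho of CPM with RPM was 0.93 for Dbp and Arntl, 0.60 for Per3 and 0.43 for Tef and Per2. On the log2(RPM + 1) scale r with Arntl was -0.58 for Dbp, -0.26 for Tef, -0.30 for Per3 and 0.054 for Per2. Of other values by library, the acinar share (r = -0.34 with Arntl, -0.063 with Dbp), the beta-cell share (0.38 and 0.054), the TMM factor (0.45 and -0.077) and the assigned counts (-0.055 and -0.0086) each had an exact permutation p of 0.257 or more.

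**Figure D3:**
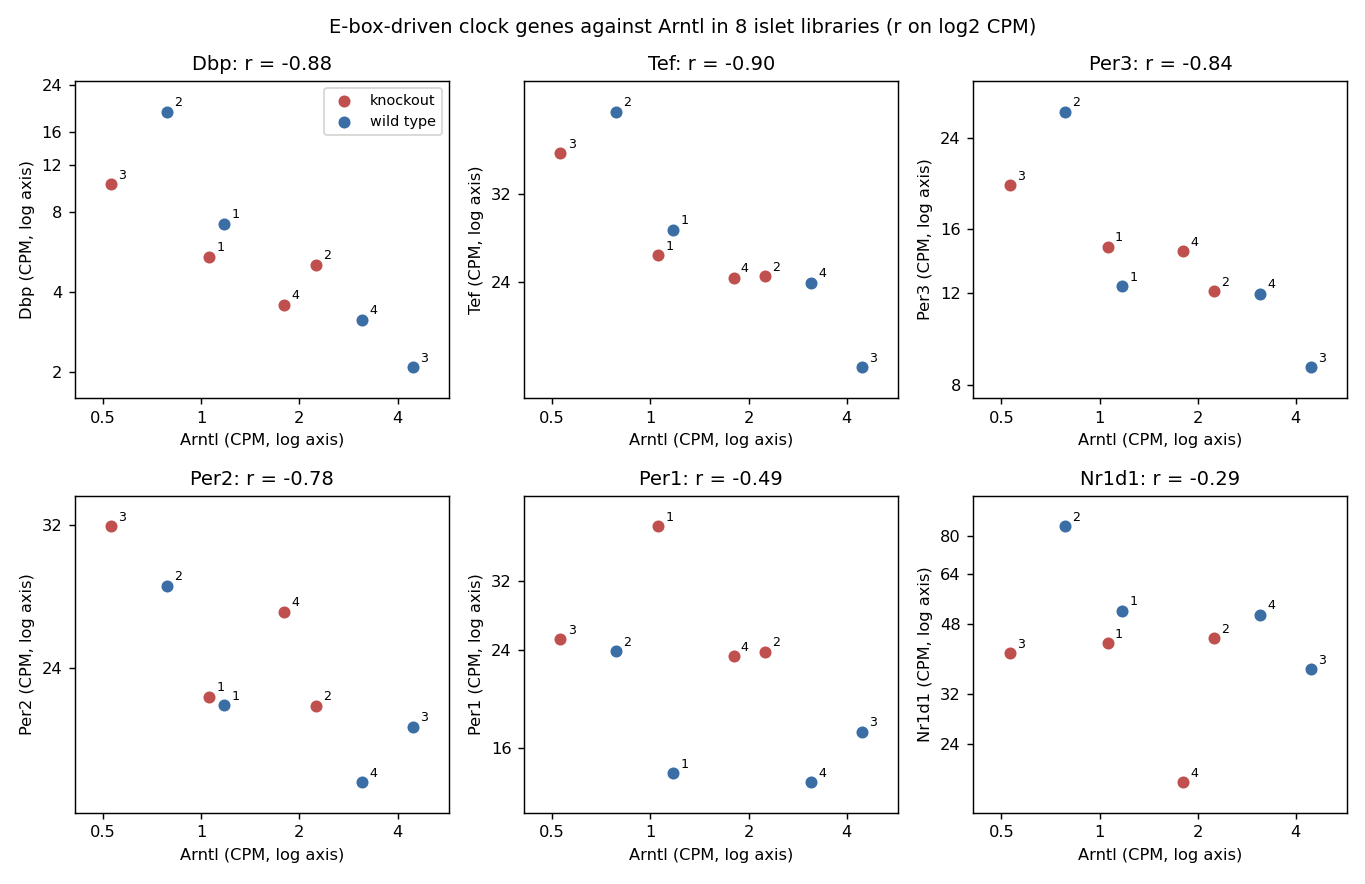
Level of each of the 6 E-box-driven clock genes (vertical, CPM, log axis) against Arntl (horizontal, CPM, log axis) in the knockout (red) and wild-type (blue) libraries, with replicate numbers. Dbp, Tef and Per3 fall from upper left to lower right across both genotypes (r = -0.88, -0.90 and -0.84), while Nr1d1 does not line up (r = -0.29).

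A ratio of counts of 2 genes within a library is free of any scaling between libraries. For each Arntl count there were 5.11, 2.25, 19.2 and 1.98 Dbp counts in knockout replicates 1 to 4, against 6.14, 24.3, 0.465 and 1.01 in wild-type replicates 1 to 4. The highest and lowest ratios, 24.3 (95% exact interval 16.4 to 37.5) in wild-type replicate 2 and 0.465 (0.337 to 0.637) in wild-type replicate 3, were 52.3-fold apart and came from the same genotype. The ratio of Per3 to Arntl counts ran over an 18.9-fold range, that of Tef to Arntl over 17.0-fold and that of Nr1d1 to Arntl over 13.0-fold. Arntl itself spanned 8.41-fold in CPM, so a wide range of these ratios does not by itself show that the arms oppose.

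The arms were also set against each other as the mean log2 CPM of Per1, Per2, Per3, Nr1d1, Dbp and Tef minus that of Arntl and Clock. This difference was 1.28, 0.44, 1.97 and 0.42 in knockout replicates 1 to 4, against 0.93, 2.16, -0.61 and -0.11 in wild-type replicates 1 to 4. The knockout mean of 1.03 ± 0.74 and the wild-type mean of 0.59 ± 1.22 (SD, n = 4 each) were 0.43 apart, less than either SD. It is a description with no test, and its lowest value, 0.035, came without wild-type replicate 3 and its highest, 0.96, without wild-type replicate 2.

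Whether the arms of a library pointed to the same part of the cycle was read from each gene's side of its own median over the 8 libraries. In wild-type replicate 2 all 6 driven genes were above their medians and Arntl and Clock below. In wild-type replicate 3 it was the reverse, with 0 of 6 driven genes above and both activators above. Wild-type replicate 4 had 1 of 6 above, Nr1d1, with both activators above. Knockout replicates 1 and 3 had 5 of 6 driven genes above, all but Nr1d1, with both activators below. Knockout replicates 2 and 4 had 2 of 6 above and wild-type replicate 1 had 3 of 6. Both activators were above in knockout replicate 2. They split in knockout replicate 4 (Arntl 0.29, Clock -0.025 log2) and in wild-type replicate 1 (Arntl -0.29, Clock 0.037 log2). Many of these sides were narrow: 4 of the 6 driven genes in knockout replicate 1 and 5 of 6 in knockout replicate 2 lay within 0.1 log2 of their medians, Dbp at 0.049 and -0.049, so the sides of those libraries are within counting error for Dbp. The sides also depended on scaling. By library totals, wild-type replicate 2 still had 6 of 6 driven genes above, with Arntl below its median and Clock just above its own (0.019 log2). Wild-type replicate 3 still had 0 of 6 above, with Arntl above. However, knockout replicates 1 and 3 had 1 of 6 above, with Arntl below. Knockout replicate 2 had 6 of 6 above with Arntl (1.01 log2) and Clock (0.31 log2) above too, so its arms went the same way. Knockout replicate 4 and wild-type replicate 4 had 4 of 6 above, with Arntl above. Wild-type replicate 1 had 2 of 6 above, with Arntl below (-0.69 log2). By library totals, then, most driven genes lay on the same side as Arntl in all libraries but wild-type replicates 2 and 3.

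**Figure D4:**
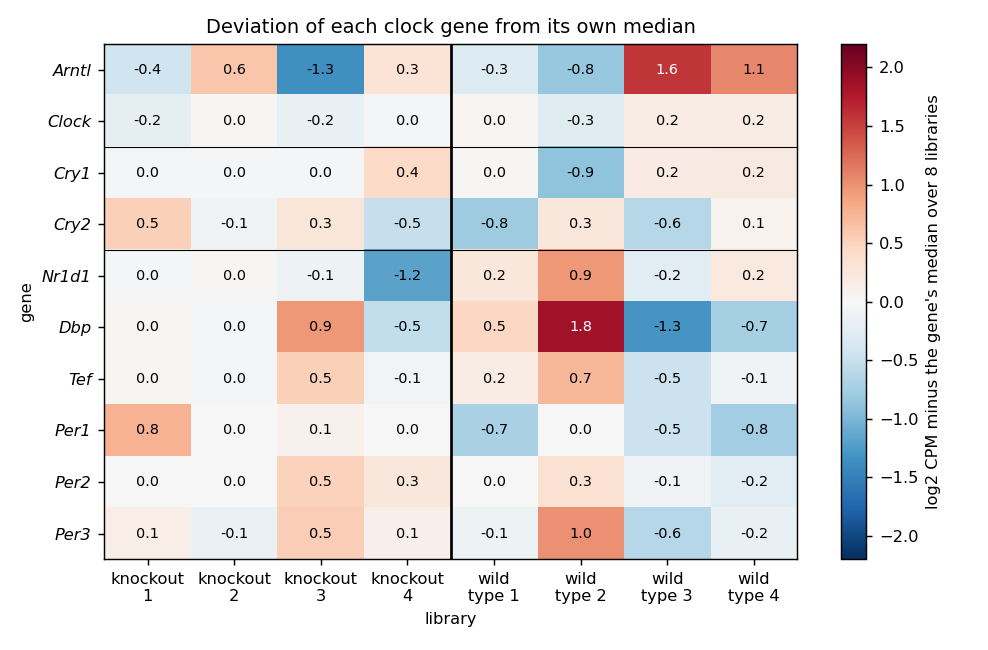
Deviation of each clock gene (rows) from its own median over the 8 libraries, in log2 CPM, for knockout libraries (left of the line) and wild-type libraries (right); red is above and blue below the median. Wild-type replicates 2 and 3 run opposite ways in all 10 genes, with Dbp at 1.85 and -1.31 and Arntl at -0.84 and 1.57; Nr1d1 is lowest in knockout replicate 4 (-1.18).

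Promoter sequences show which elements of the loop stand next to these starts, and those that hold a match are given for one start site each. They come from RefSeq (GRCm38.p6, 250 bases before to 50 after a start, printed 5′ to 3′ on the gene's strand), where 9 of the 10 genes had an entry and Per2 had none. Capitals mark matches on either strand to the E-box CACGTG, the D-box TTANGNAA, the ROR element (matched with 2 open positions) or the cyclic AMP element TGACGTCA. Arntl is at chr7:113207261-113207560 (+), Per1 at chr11:69098699-69098998 (+), Per3 at chr4:151044616-151044915 (-), Tef at chr15:81802423-81802722 (+) and Cry1 at chr10:85185005-85185304 (-).
Arntl: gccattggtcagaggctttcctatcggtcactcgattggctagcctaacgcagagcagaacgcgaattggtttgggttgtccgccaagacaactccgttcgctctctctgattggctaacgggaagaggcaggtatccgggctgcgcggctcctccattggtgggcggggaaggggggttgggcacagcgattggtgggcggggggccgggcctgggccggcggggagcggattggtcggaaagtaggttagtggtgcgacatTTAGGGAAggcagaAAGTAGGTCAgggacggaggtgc
Per1: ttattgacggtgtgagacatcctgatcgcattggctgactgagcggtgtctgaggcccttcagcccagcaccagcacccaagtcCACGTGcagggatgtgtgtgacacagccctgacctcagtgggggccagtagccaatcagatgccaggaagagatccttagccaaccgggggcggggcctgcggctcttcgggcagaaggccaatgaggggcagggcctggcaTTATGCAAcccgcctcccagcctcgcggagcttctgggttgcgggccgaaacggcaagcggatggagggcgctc
Per3: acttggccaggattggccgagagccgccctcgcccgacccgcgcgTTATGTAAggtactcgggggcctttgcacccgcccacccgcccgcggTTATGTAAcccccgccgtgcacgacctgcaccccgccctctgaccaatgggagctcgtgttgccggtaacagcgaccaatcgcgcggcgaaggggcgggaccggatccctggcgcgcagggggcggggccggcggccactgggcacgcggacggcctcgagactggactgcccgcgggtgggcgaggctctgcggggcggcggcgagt
Tef: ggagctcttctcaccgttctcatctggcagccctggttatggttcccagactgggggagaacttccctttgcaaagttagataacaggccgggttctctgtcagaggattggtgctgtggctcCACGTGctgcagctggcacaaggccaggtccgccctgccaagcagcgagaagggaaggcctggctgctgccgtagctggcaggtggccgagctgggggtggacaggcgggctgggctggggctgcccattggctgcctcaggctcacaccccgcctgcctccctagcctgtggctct
Cry1: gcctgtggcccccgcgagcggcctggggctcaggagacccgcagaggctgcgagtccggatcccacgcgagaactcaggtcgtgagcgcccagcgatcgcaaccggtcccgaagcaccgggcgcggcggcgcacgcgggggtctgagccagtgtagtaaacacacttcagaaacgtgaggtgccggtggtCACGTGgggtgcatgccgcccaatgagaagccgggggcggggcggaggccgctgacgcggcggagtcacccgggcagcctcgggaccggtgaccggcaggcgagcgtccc

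Counting the first transcribed base as position 1, the Arntl window held a ROR element from position 28, an element found in 0.606% of the 32851 promoters of the table, and a D-box match from position 14. Per3 held 2 D-boxes with identical letters, from positions -205 and -158, and Per1 one from position -24. D-box matches stood in 11.5% of all promoters. The E-box was found in Per1 (from position -166), in both start sites of Tef (-127 and -138) and in Cry1 (-60), against 7.15% of all promoters. Over the 9 genes with an entry, 3 held an E-box, 3 a D-box, 1 a ROR element and 0 the cyclic AMP element at any start site. The shares of all 27025 genes by the same count were 8.09%, 13.1%, 0.714% and 2.03%. The other start sites of Arntl and Per1 held no match. Dbp, Nr1d1, Cry2 and Clock held no match to these letters in these windows, which says nothing of elements elsewhere in the genes.

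Partners of the loop gave further values in the same libraries. Npas2, a CLOCK paralog, was too low to be tested, with 5, 12, 1 and 3 counts in knockout and 7, 3, 31 and 29 counts in wild type. Its highest counts were in wild-type replicates 3 and 4, the libraries highest in Arntl. Nfil3, the D-box repressor that REV-ERB also represses, had 1.82, 4.79, 1.37 and 2.44 CPM in knockout, against 1.83, 0.632, 7.29 and 4.01 CPM in wild type. It varied with Arntl over the 8 libraries (r = 0.90, exact permutation p = 0.0031, adjusted 0.029 over 19 partners; rho = 0.95, adjusted p = 0.022), also within genotype (0.94), without knockout replicate 3 and wild-type replicate 3 (0.91) and when scaled by library totals (0.92).

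Nr1d2, the REV-ERB beta gene, had 42.9, 42.9, 57.1 and 42.2 CPM in knockout, against 46.6, 51.0, 24.02 and 31.96 CPM in wild type. It ran opposite to Arntl (r = -0.93, exact permutation p = 0.00025, adjusted 0.0047; rho = -0.88, adjusted p = 0.046), where its relative Nr1d1 did not pass, though r was -0.17 when scaled by library totals. Without knockout replicate 3 and wild-type replicate 3 it was -0.86. Ciart, a repressor of CLOCK and BMAL1, had 1.94, 1.4999, 2.30 and 0.835 CPM in knockout, against 0.913, 1.90, 0.449 and 0.560 CPM in wild type (r = -0.87 with Arntl, exact permutation p = 0.0074, adjusted 0.047; rho = -0.90, adjusted p = 0.043; r = -0.71 without those libraries and -0.49 when scaled by library totals). None of the other 16 partners passed, and for 5 of them, Usp2, Noct, Wee1, Pim3 and Tsc22d3, no value is given because the genotypes did not overlap.

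Between genotypes, 0 of these partners passed FDR 0.05 by edgeR. Among the 4 REV-ERB and ROR genes, 0 had an unadjusted p under 0.05, with a median log2 fold change of 0.23. Rorb and Rora, transcriptional activators of Arntl, had 0.91 ± 0.42 and 0.19 ± 0.10. Rorb was near the floor, with 14, 9, 12 and 19 counts in knockout and 9, 8, 13 and 7 counts in wild type. Hlf, the remaining PAR bZIP gene, had 13.4 ± 3.42 CPM in knockout and 8.03 ± 3.64 CPM in wild type, a log2 fold change of 0.74 ± 0.34 (edgeR adjusted p = 0.282). Its highest library, at 18.1 CPM, was knockout replicate 2, the library with liver markers, whose part in the Hlf level was not tested. Nfil3 had -0.37 ± 0.75. Of 13 further E-box repressors and outputs, 5 were higher and 0 lower in knockout at an unadjusted p under 0.05, beside 8.42% higher and 10.3% lower of all genes tested, with a median log2 fold change of 0.32. This list too was chosen with earlier results of these data known. Tsc22d3 is also among the 12 glucocorticoid-induced genes, so the counts of higher genes in those lists share it. In all 5, Usp2, Noct, Tsc22d3, Wee1 and Pim3, every knockout library lay above every wild-type library, as in 3.68% of all genes tested. Of these Wee1, a cell cycle kinase gene, was at 5.72 ± 0.34 CPM in knockout and 3.35 ± 0.82 CPM in wild type, a log2 fold change of 0.77 ± 0.18 (edgeR adjusted p = 0.120). The 18 kinases, ligases and modifiers of clock proteins had 2 higher and 0 lower at that p, a share near that of all genes tested, and a median log2 fold change of 0.012. The casein kinase gene Csnk2a1 had 0.28 ± 0.10 (edgeR adjusted p = 0.193). Btrc, a ubiquitin ligase subunit for PER proteins, had -0.22 ± 0.11 (edgeR adjusted p = 0.293).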

How the data were processed

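Levels were measured in 8 islet libraries, 4 knockout and 4 wild type, made from total RNA with the SeqPlex kit, per the labels' protocols. Estimated counts fill the first deposited table; the share not whole (tolerance 0.01) was 9.98 to 12.4% by library, and values were rounded. The second deposited table holds RPM; from the values, each is a count over 1 constant per library with 0.0001 added. The submitters' processing notes name STAR 2.4.1, Partek and mouse build mm9; which role each had, the annotation and strandedness are not stated there.

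Counts were tested in R 4.3.3 with edgeR 4.0.16 (TMM, filterByExpr by genotype, robust quasi-likelihood F-test, Benjamini-Hochberg adjustment over 13617 genes, threshold 0.05), and the test was tried on simulated counts with 200 changed genes (135 calls, 7 of them false). Standard errors come from the F statistic. Logarithms for correlations, arms and spread used a prior count of 2. Permutation tests ran over all 40320 pairings, or 576 within genotype, in Python 3.11.15. Intervals cover counting error only. Alternatives were DESeq2 1.42.0, limma 3.58.1 (voom, and trend on log2 of RPM + 1), other scalings and filters, the acinar share, the replicate number as a block and each library left out. Named genes are the 10 clock genes, every partner past FDR 0.05 and up to 3 per list of smallest p, of which 1 is not reported here; Npas2, Ciart, Wee1, Pim3 and the relations of partners with Arntl were chosen after their values were seen. For the correlations, upper-quartile scaling, library totals and leaving out single libraries, and for sides of the median the same scalings, were alternatives added after seeing the data. The genes and lists were chosen with earlier results of these data known.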

Additional observations from a re-analysis of the deposited data

Results flagged for a closer look

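Among 22 groups of 4 libraries examined (10 genes and the arm difference in each genotype), 4 held a library far from the other 3 by Dixon's ratio of the gap to the range, above 0.829; chance gives about 1 in 20 groups. Per1 was high in knockout replicate 1, at 5.33 log2 CPM. Nr1d1 was low in knockout replicate 4, at 4.27 log2 CPM, and its log2 fold change was -0.39 without that library. Cry1 was high in knockout replicate 4, at 1.21 log2 CPM, and low in wild-type replicate 2, at -0.085 log2 CPM. These are the libraries lowest and highest in Nr1d1. Cry1 counts were 28 to 70. Its 95% counting interval in knockout replicate 4 (1.75 to 2.84 CPM) overlapped those of the other knockout libraries (up to 2.38 CPM). In wild-type replicate 2 the interval (0.585 to 1.25 CPM) lay below those of the other wild-type libraries (from 1.27 CPM).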

How the results depend on the processing

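The number of clock genes past FDR 0.05 was 0 under 16 of 17 alternatives and 1 (Per1) with DESeq2. Over all genes 2 passed, against 526 with DESeq2, 48 with no composition factor, 51 with limma-trend on RPM, 5 with the acinar share in the model, and 2 to 1313 with single libraries omitted (1313 without wild-type replicate 1, 5 without knockout replicate 4). With no composition factor the median log2 fold change of all genes was -0.11. Of clock gene fold changes under alternatives, 154 kept sign and call, 15 changed sign with none past the threshold, and 1, Per1 with DESeq2, passed. The 154 include Arntl and Cry1 with DESeq2, which gave them no adjusted p, so there only the sign was kept. Per3 became -0.24 with no composition factor and -0.026 with limma-trend on RPM, and lay between -0.19 and 0.46 with single libraries omitted (-0.13, -0.079, -0.19 and -0.075 without knockout replicate 3 and wild-type replicates 1, 3 and 4). Dbp became 0.54 and Cry1 -0.037 without wild-type replicate 2, in ranges of -0.77 to 0.54 and -0.037 to 0.27. Tef became 0.028 with limma-voom, 0.012 with the acinar share, 0.027 with the replicate block and 0.0018, 0.045, 0.047 and 0.24 without knockout replicates 1, 2 and 4 and wild-type replicate 2. The replicate block changed no call of a clock gene: same-numbered libraries correlated at 0.077, 0.45, 0.36 and 0.22 in their deviations, not every library correlated best with its own number, and 2 genes passed FDR 0.05.

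Of relations with Arntl, scaling by library totals gave r of 0.042 for Per1, 0.19 for Per2, -0.13 for Per3, 0.18 for Nr1d1, -0.48 for Dbp and -0.080 for Tef, and log2(RPM + 1) gave 0.054 for Per2, -0.30 for Per3, 0.082 for Nr1d1, -0.58 for Dbp and -0.26 for Tef. Within genotype Per2 was at -0.75. Without the 2 libraries farthest from the median of Arntl, r was -0.66 for Per2, -0.73 for Per3, -0.83 for Dbp and -0.79 for Tef. With each library left out r ran from -0.84 to -0.65 for Per2, from -0.90 to -0.75 for Per3, from -0.94 to -0.81 for Dbp and from -0.94 to -0.84 for Tef. The cause of these changes was not tested. Arntl counts as low as 12 limit the precision of its level.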

Other observations

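The tested genes most like Arntl over the 8 libraries, among 5887 with a mean of at least 3 log2 CPM, were Psmc5, a proteasome ATPase gene (r = 0.95), Rab8a, a vesicle traffic GTPase gene (0.95), G6pdx, of the pentose phosphate pathway (0.93), Slc38a7 (0.93) and Syt5, a synaptotagmin gene (0.92). Psmc5 had 31.1 to 40.6 CPM in knockout and 36.8 to 52.4 CPM in wild type. Those most like Dbp were Dixdc1 (r = 0.94), Wdr60 (0.94), Arhgap36 (0.93), the RNA-binding protein gene Msi2 (0.92) and Phf14 (0.89). Arhgap36 had 5.82 to 9.82 CPM in knockout and 4.94 to 16.9 CPM in wild type. These are the highest of many coefficients and are given as a description with no test.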
